A study of Drosera capensis with 12 samples.

Results

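Among the transcript features of Cape sundew traps, 94 were higher in traps closed on flies than in their mock traps and were not higher in traps closed by glutathione than in theirs. These 94 members, out of 397048 features in the table, were selected on the measured values themselves. A member had to be above 0 in all 12 libraries, to have a mean over the 6 mock libraries from 1 to under 300 TPM (the share of a library's total, scaled to 1e+06), to change by at least 0.7 on the log2 scale after flies and by at most 0.3 after glutathione, and to have its lowest fly-closed value above its highest fly mock value. Changes were taken on group means after adding 1 TPM, and each was centred on its median over the 30755 features above 0 in all libraries.

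RNA was sequenced from leaf traps of Drosera capensis in 4 groups of 3 libraries. The GSH-closed traps had folded after glutathione (GSH) at 100 mM was put on the leaf petiole, and the GSH mock traps received no small molecule. The fly-closed traps had folded on living fruit flies, and the fly mock traps were not stimulated. For the fly-closed libraries a second label names GSH as the agent, against their titles, and the titles were followed; no genotype, plant age or closing time is given for any group, and the mock of one experiment was never shared with the other. Whether a group's libraries are separate plants is not stated, so p-values measure a spread that may be technical.

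Sundews catch insects with sticky tentacles and bend the leaf around the prey. In carnivorous plants, capture is known to set off electrical and calcium signals and jasmonate hormone signalling, and digestive enzymes and nutrient transporters follow. Glutathione is a thiol tripeptide that plant cells use to buffer oxidants, and cells can take it up. A whole trap holds gland, epidermal, mesophyll and vascular cells, so a higher level cannot be told apart from a larger share of the cells that hold the transcript. The files do not pair features with gene names and no sequence was used here, so no member can be given a function, marker genes could not be checked, and 4 members are named by their assembly IDs.

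The column sums ranged from 17708300 to 20453100 rescaled units, and 59804 to 86499 features were above 0 in a library, with more in the fly experiment than in the GSH experiment. How many reads lie behind a value is unknown. Of the 24794 features that met the limits on detection and mock level (called features in range below), 1211 reached the minimum change after flies and 981 of these also had groups that did not overlap. The members are the 94 of those 981 that stayed within the GSH limit; the other 887 exceeded it. Fly-closed libraries lay above fly mock libraries in 10.6% of the features in range, and in all 94 members because the rule asks for it.

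**Figure D1:**
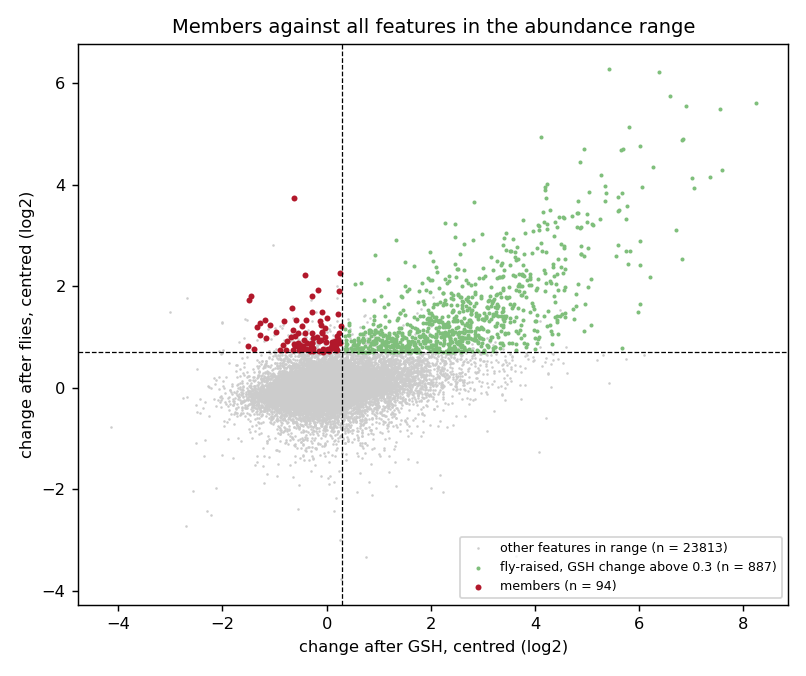
Change after flies (vertical, log2) against change after GSH (horizontal, log2) for each feature in range, both centred; dashed lines mark the limits of 0.7 and 0.3. The 94 members fill the upper left corner at the edge of the main cloud, while the 887 other fly-raised features reach a change of 6.28 after flies and 8.25 after GSH.

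Members were mostly low and their changes small. The median mean mock level was 4.25 TPM in members, 6.67 TPM in the other fly-raised features and 9.79 TPM over all features in range. A mean mock level under 5 TPM was found in 53 members (56.4%), against 31.6% of features in range. Only 1 member reached 100 TPM. The change after flies had a median of 0.92 on the log2 scale and a middle range from 0.82 to 1.19. It was at least 1 in 39 members and at least 2 in 3, and the median of the other fly-raised features was 1.2. The lowest fly-closed library stood above the highest fly mock library by a median factor of 1.33. That factor was under 1.2 in 33 members and at least 2 in 9.

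Values at the limits show how fine the choice was. The member nearest to the fly limit changed by 0.72, and the nearest feature outside it by 0.69. The GSH changes nearest to the limit were 0.27 inside and 0.35 outside. In 1 member the lowest fly-closed and the highest fly mock value were equal to 3 digits, at 4.59 TPM, and in the nearest feature outside they were 1.62 and 1.64 TPM. There were 684 features that met all limits except the size of the fly change, and 109 that met all except the gap between the groups.

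By group means the members changed little or fell after GSH, as the rule asks. Their median centred change was -0.28 on the log2 scale, against -0.11 over all features in range and 2.5 in the other fly-raised features. The change lay between -0.3 and 0.3 in 51 members, was -0.3 or lower in 43 and was -1 or lower in 10. It was above 0 in 26. Because the median feature changed by -0.34 after GSH, the limit of 0.3 is a limit of -0.04 before centring. The mean TPM was accordingly lower in GSH-closed than in GSH mock traps for all 94 members, against 76.1% of features in range. The 3 GSH-closed libraries all lay below the 3 GSH mock libraries in 25 members (26.6%), which is below the 50.2% of features in range. None of the 94 had all GSH-closed libraries above the mock, against 13.5% of features in range. All of these values follow from the rule and are given as a description.

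Members were mostly higher in GSH mock traps than in fly mock traps. Summed over the 94 members, the level was 643, 564 and 529 TPM in the fly mock libraries and 1282, 1236 and 1331 TPM in the fly-closed libraries. In the GSH mock libraries the sum was 1266, 1030 and 1144 TPM, and in GSH-closed libraries 726, 743 and 795 TPM. Before library scaling the fly mock was therefore the lowest group and the fly-closed the highest, with 1 GSH mock library between 2 fly-closed ones. The sums, means and ratios in this paragraph are TPM without the TMM scaling used for the test. The TMM factor was higher in every GSH mock library than in every GSH-closed library. Scaling therefore lowers the GSH mock sums relative to the GSH-closed sums, and the fall between these groups is smaller after it. The position of the GSH mock library between fly-closed ones is likewise stated for unscaled sums only. The mean in the GSH mock exceeded that in the fly mock in 89 of 94 members (94.7%), against 67.2% of features in range and 79.0% of the other fly-raised features. In 30 members (31.9%) it was also at or above the fly-closed mean, which is a lower share than the 67.1% of features in range. The median ratio of GSH mock to fly mock was 1.94, beside 2.33 for fly-closed to fly mock and 1.22 for fly-closed to GSH mock. The rule favours features with low fly mock values and high GSH mock values. This gap between the unstimulated groups therefore follows at least in part from the choice. Features chosen on 2 replicates of each group had medians of 0.054, 0.026 and 0.058 for it in the left-out libraries (log2, centred). Over all features in range the medians were 0.069, 0.024 and 0.051, so the features chosen in this way showed no such gap as a set. Only 63 to 69 of them in each choice were among the 94 members. This reading therefore describes the rule and cannot show whether the gap of the members themselves would recur.

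**Figure D2:**
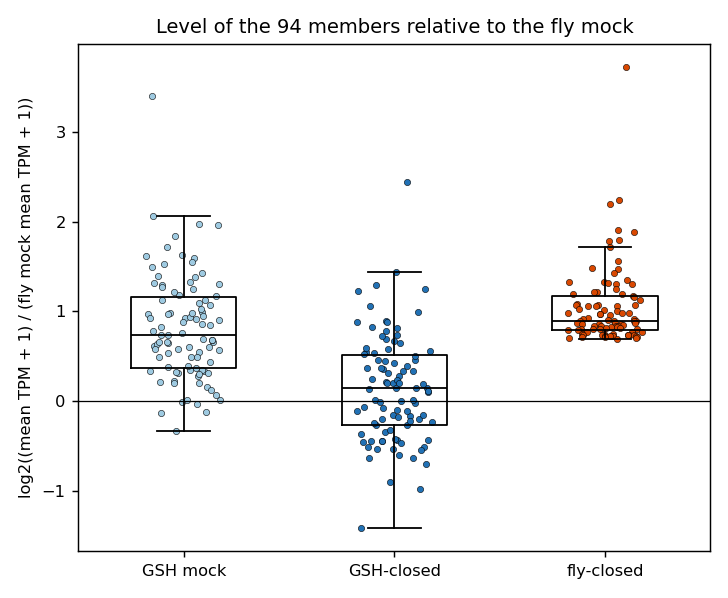
Level of each member in 3 groups relative to its fly mock mean (log2 of mean TPM plus 1, not centred); each point is 1 of the 94 members, boxes run from the lower to the upper quartile with the median as a line, and whiskers reach the last point within 1.5 box lengths. Medians were 0.74 in the GSH mock, 0.14 in GSH-closed and 0.90 in fly-closed traps.

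The order of single libraries divides the members further. In 15 members (16.0%) every fly-closed library lay above all 9 other libraries. Of features in range 0.883% did so, and of the other fly-raised features 4.06%. The rule already puts fly-closed libraries above the fly mock and limits the GSH change, so the counts in this paragraph are a description. Every fly mock library lay below all 9 others in 11 members (11.7%). The share was 4.15% of features in range and 45.5% of the other fly-raised features. GSH mock libraries all lay above fly mock libraries in 41 members (43.6%). The share was 28.6% of features in range and 46.1% of the other fly-raised features, so it was not particular to the members. Fly-closed libraries all lay above GSH mock libraries in 16 members (17.0%), against 10.1% of features in range and 72.2% of the other fly-raised features. GSH mock libraries all lay above fly-closed libraries in 2 (2.13%), against 29.6% and 5.64%. Among the 15 members highest in fly-closed traps, mean mock levels ran from 1.37 to 26.4 TPM, and 12 were under 5 TPM.

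A test over all 45503 features abundant enough to enter it called few of the members. All 94 members entered. With p-values adjusted by Benjamini-Hochberg and a threshold of 0.05, limma called 15 of the 94 higher after flies, where 4.77% of all tested features were called higher. It called 8 lower after GSH, where the share was 11.1%, and none higher, where the share was 14.7%; at an unadjusted p below 0.05, 1 was higher and 19 were lower after GSH, where the shares were 18.5% and 16.5%. Without GSH mock replicate 2, limma called 1 member higher after GSH and 10 lower, where 6311 and 4755 of 44630 features were called. Without adjustment 62 of the 94 passed after flies, where the share was 8.81%. The fly effect was above the GSH effect in 28 members by the test of the difference, where 5.89% of all features were called. The rule used these contrasts, so the counts are a description. They cannot show how much of the set stands clear of the spread between libraries.

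Counts between the unstimulated groups also rest on values the rule used and are a description. Limma called the GSH mock above the fly mock in 10 members, where 5.65% of features were called, and the fly mock above the GSH mock in none, where the share was 3.78%. At an unadjusted p below 0.05 the fly mock was above the GSH mock in none either, where the share was 9.11%. Fly-closed traps were called above GSH mock traps in 10 members, where the share was 7.65%, and below them in 1, where the share was 6.61%. Without GSH mock replicate 2 these counts were 6 above and 3 below, where 3476 and 2976 of 44630 features were called. Without fly-closed replicate 1 they were 6 and 1, where 2168 and 2106 of 43582 features were called.

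The 15 members called after flies differed in how the GSH mock compared. In 7 the GSH mock was called above the fly mock, and in 7 fly-closed traps were called above the GSH mock; 1 member belonged to both and 2 to neither. Their changes after flies ran from 0.74 to 2.24 on the log2 scale, 4 of the 15 were also called lower after GSH, and 14 were called for the difference between the responses. Of the 28 members called for that difference, 14 were not called after flies, and 10 of these were called after neither stimulus. Such overlaps of calls were not counted over all tested features, and the rule used the values behind them. The counts in this paragraph are therefore a description and do not show what is particular to the members.

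The clearest rise over every other group was in the member with the next highest gap between fly-closed and fly mock libraries. Fly mock libraries held 8.55, 8.23 and 8.36 TPM of it, whereas fly-closed libraries held 44.2, 32.6 and 49.1 TPM. GSH mock libraries held 9.74, 8.63 and 9.91 TPM, whereas GSH-closed libraries held 5.58, 4.96 and 4.98 TPM. Fly-closed libraries were the 3 highest of the 12, with a mean of 42.0 TPM beside 8.38 and 9.43 TPM in the fly and GSH mocks. The change after flies was 2.18 ± 0.13 (SE) on the log2 scale (limma adjusted p = 2.42e-06), and the change after GSH was -0.38 ± 0.13 (adjusted p = 0.0634). The GSH change passed without fly-closed replicate 2 (limma adjusted p = 0.00512), in a range from 0.00117 to 0.338 over 19 alternatives.

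The member with the highest gap had another order of groups. Its fly mock libraries held 1.96, 1.90 and 2.31 TPM and its fly-closed libraries 14.4, 13.9 and 12.2 TPM. Its GSH mock libraries held 7.24, 8.56 and 7.67 TPM and its GSH-closed libraries 7.5, 7.21 and 7.16 TPM. The GSH experiment thus lay between the fly mock and the fly-closed traps, with no overlap on either side. It rose after flies by 2.24 ± 0.13 (SE, limma adjusted p = 1.74e-06), and the GSH mock was above the fly mock by 1.40 (adjusted p = 9.6e-05). Its GSH change was 0.29 ± 0.13 (SE, limma adjusted p = 0.137). Without GSH mock replicate 2 that change was 0.41 and passed as higher after GSH (adjusted p = 0.0458), in a range up to 0.665 over 19 alternatives.

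Among the other members called after flies, 5 were likewise called above the GSH mock. The highest of them rose from 24.4 ± 1.40 TPM (SD, n = 3) in the fly mock to 41.5 ± 5.92 TPM in fly-closed traps, beside 28.4 ± 3.21 TPM in the GSH mock and 22.6 ± 1.08 TPM in GSH-closed traps. Its change of 0.74 ± 0.09 (SE, limma adjusted p = 0.000448) was the lowest of the 15. The next went from 15.1 ± 2.03 to 28.4 ± 2.76 TPM after flies, beside 17.6 ± 0.92 and 10.3 ± 2.02 TPM in the GSH mock and GSH-closed traps. In both, all fly-closed libraries lay above the 9 others. The remaining 3 stood at 2.22 to 3.09 TPM in the fly mock and 4.72 to 8.51 TPM in fly-closed traps, and 2 of these fell after GSH, with changes of -0.72 (limma adjusted p = 0.0156) and -0.55 (adjusted p = 0.0248).

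Another 4 members called after flies, apart from the one with the highest gap and the named ones below, had a GSH mock called above the fly mock. The first rose from 22.4 ± 2.94 to 38.7 ± 7.73 TPM (SD, n = 3) after flies, beside 43.2 ± 4.49 TPM in the GSH mock and 27.9 ± 6.81 TPM in GSH-closed traps. Another rose from 17.5 ± 3.72 to 32.1 ± 2.38 TPM, beside 53.4 ± 15.3 and 26.9 ± 1.90 TPM. One at a lower level rose from 5.75 ± 0.90 to 11.5 ± 1.31 TPM, beside 13.2 ± 2.30 and 10.2 ± 1.57 TPM. In these 3 the GSH mock mean was the highest of the 4 groups. The last was lower, at 1.95 ± 0.17 TPM in the fly mock, 4.26 ± 0.14 TPM in fly-closed traps, 3.66 ± 0.61 TPM in the GSH mock and 1.44 ± 0.12 TPM in GSH-closed traps, and it fell after GSH by 0.63 on the log2 scale (limma adjusted p = 0.00717).

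TRINITY_DN9993_c0_g1 and TRINITY_DN40905_c0_g1 had the widest gap between fly-closed and fly mock libraries among the 22 members with a mean mock level of at least 10 TPM. For TRINITY_DN9993_c0_g1, fly mock libraries held 22.2, 23.5 and 25.5 TPM and fly-closed libraries 47.5, 47.0 and 50.7 TPM. GSH mock libraries held 80.9, 64.5 and 75.8 TPM and GSH-closed libraries 41.5, 35.8 and 35.9 TPM. The highest group was thus the GSH mock, above all 9 other libraries. The feature rose after flies by 1.01 ± 0.09 (SE, limma adjusted p = 4.83e-05), fell after GSH by 0.52 on the log2 scale (SE 0.09, adjusted p = 0.00165), and in fly-closed traps stayed below the GSH mock with a difference of -0.44 (adjusted p = 0.00824). It is the 1 member called lower in fly-closed than in GSH mock traps.

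For TRINITY_DN40905_c0_g1, fly mock libraries held 22.4, 17.3 and 13.8 TPM and fly-closed libraries 45.1, 38.1 and 53.6 TPM. Its level was 75.7, 45.8 and 60.9 TPM across GSH mock libraries and 32.8, 35.6 and 63.0 TPM across GSH-closed libraries. All other groups overlapped each other and lay above the fly mock. It rose after flies by 1.33 ± 0.25 (SE, limma adjusted p = 0.00824), a call that was lost without fly-closed replicate 1 (adjusted p = 0.0519) or replicate 3 (adjusted p = 0.054), and whose adjusted p ran from 0.0023 to 0.054 over 19 alternatives. Its GSH change of -0.07 (adjusted p = 0.893) took the opposite sign without GSH mock replicate 1 or GSH-closed replicate 1 or 2. The difference between the changes was 1.40 ± 0.35 (SE, limma adjusted p = 0.0217). That call was lost under 8 of 18 alternatives, whose adjusted p went from 0.00421 to 0.098. It was lost without GSH mock replicate 1, GSH-closed replicate 1 or 2, fly mock replicate 3, or fly-closed replicate 1 or 3.

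TRINITY_DN2378_c3_g1 and TRINITY_DN2805_c2_g1 had the lowest GSH change among members of at least 10 TPM whose GSH-closed libraries all lay below the GSH mock. GSH mock libraries held 16.0, 13.2 and 16.3 TPM of TRINITY_DN2378_c3_g1, and GSH-closed libraries 2.26, 8.59 and 1.28 TPM. Fly mock libraries held 10.1, 1.87 and 9.62 TPM, and fly-closed libraries 14.7, 22.0 and 15.8 TPM. GSH mock and fly-closed libraries overlapped, and replicate 2 of the fly mock was low beside the other two. Neither change passed the test, with -1.60 ± 0.59 (SE) after GSH (limma adjusted p = 0.0752) and 1.39 ± 0.59 after flies (adjusted p = 0.319). The GSH change did pass without GSH-closed replicate 2 (limma adjusted p = 0.0115) or fly mock replicate 2 (adjusted p = 0.0295), in a range up to 0.33 over 19 alternatives. The difference between the changes was 2.99 ± 0.83 (SE, limma adjusted p = 0.0358). It was lost under 11 of 18 alternatives (adjusted p between 0.0075 and 0.164), and with 1 library left out it held only without fly mock replicate 1 or 3 or GSH-closed replicate 2.

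GSH mock libraries held 40.1, 75.1 and 50.2 TPM of TRINITY_DN2805_c2_g1, and GSH-closed libraries 20.7, 14.7 and 36.5 TPM. The level was 18.8, 21.2 and 21.7 TPM across fly mock libraries and 68.0, 35.1 and 54.1 TPM across fly-closed libraries. GSH mock and fly-closed libraries overlapped and both lay above the fly mock. The change after GSH was -0.80 ± 0.36 (SE, limma adjusted p = 0.146) and after flies 1.27 ± 0.36 (adjusted p = 0.0864). The GSH change passed without GSH-closed replicate 3 (limma adjusted p = 0.0485), in a range from 0.0165 to 0.605 over 19 alternatives. The difference between the changes was 2.06 ± 0.51 (SE, limma adjusted p = 0.0205). It was lost under 3 of 18 alternatives (adjusted p between 0.0043 and 0.0907), among them without fly-closed replicate 1 (adjusted p = 0.0517).

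**Figure D3:**
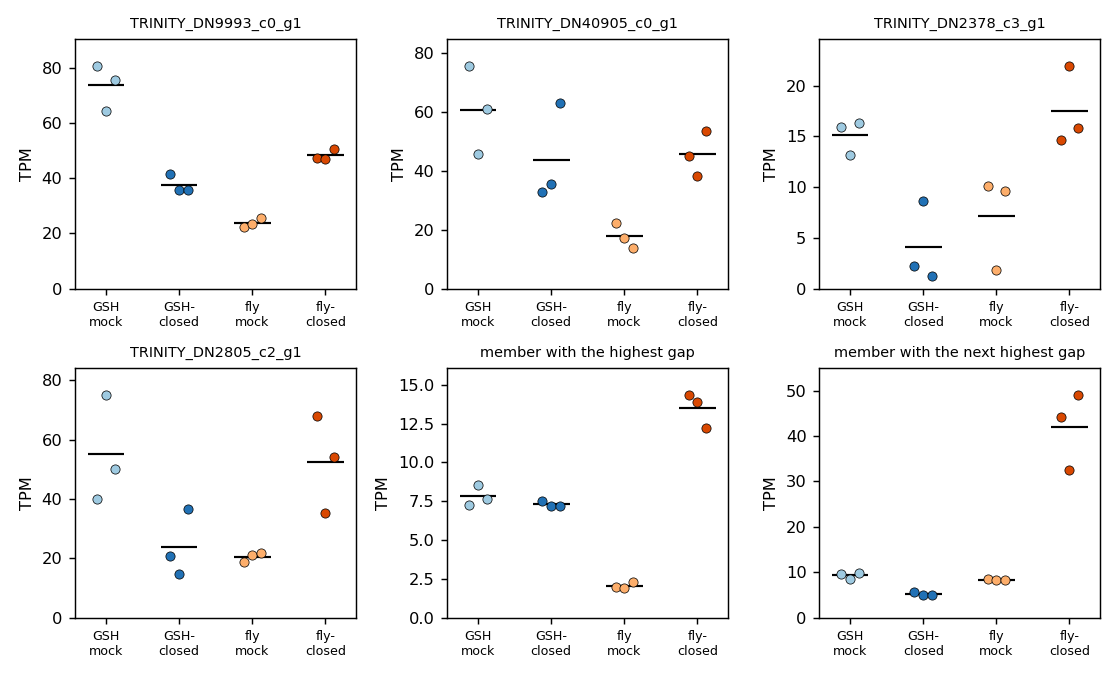
TPM in each library for 4 named members and for the 2 members with the highest gap between fly-closed and fly mock libraries; points are libraries, lines are group means, and every vertical axis starts at 0. In the 4 named members the GSH mock sits near or above the fly-closed level, while in the member with the next highest gap fly-closed traps stand alone at 32.6 to 49.1 TPM.

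The extremes of the set were less steady. The member with the highest mean mock level, 105 TPM, stood at 111, 85.7 and 38.5 TPM across fly mock libraries and 133, 155 and 135 TPM across fly-closed libraries. Its GSH mock libraries held 182, 106 and 107 TPM and its GSH-closed libraries 99.3, 128 and 125 TPM. Fly mock replicate 3 stood far below the others and GSH mock replicate 1 above them, and the change after flies of 0.97 ± 0.33 (SE) did not pass limma's test (adjusted p = 0.176). The member with the largest change by the rule, 3.75 on the log2 scale, stood at 1.03, 0.81 and 0.16 TPM across fly mock libraries and at 50.3, 10.7 and 2.11 TPM across fly-closed libraries. GSH mock libraries held 0.64, 48.2 and 0.90 TPM, and GSH-closed libraries 13.8, 4.81 and 5.51 TPM. One library in each of 2 groups carried most of its signal, and the limma change of 2.92 ± 1.32 (SE) after flies did not pass (adjusted p = 0.367). Its GSH change was -0.62 by the rule but had the opposite sign in limma, 0.93 ± 1.32 (SE, adjusted p = 0.685). With 1 library left out the limma GSH change ran from 0.083 to 2.55.

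Members varied more between libraries of a group than other features did. The rule sets no limit on that spread, but a choice by group means can favour features that vary. The median ratio of SD to mean over the 3 libraries was 0.42 in the GSH mock, 0.49 in GSH-closed, 0.30 in the fly mock and 0.24 in fly-closed traps. Over all features in range it was 0.16, 0.13, 0.12 and 0.13, and in the other fly-raised features 0.16, 0.066, 0.15 and 0.096, in the same order of groups. Among features under 5 TPM the ratios were 0.46 against 0.28 in the GSH mock and 0.51 against 0.28 in GSH-closed traps, members given first. They were closer in the fly experiment, at 0.31 against 0.25 in the fly mock and 0.27 against 0.24 in fly-closed traps. The highest GSH-closed library was at least 5 times the lowest in 24 members (25.5%), against 4.63% of features in range. In the GSH mock the shares were 17.0% against 3.76%, in the fly mock 6.38% against 2.87% and in fly-closed traps 3.19% against 2.85%. The spread was wider in the GSH experiment than in the fly experiment, where the rule itself asks for groups that stand apart.

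**Figure D4:**
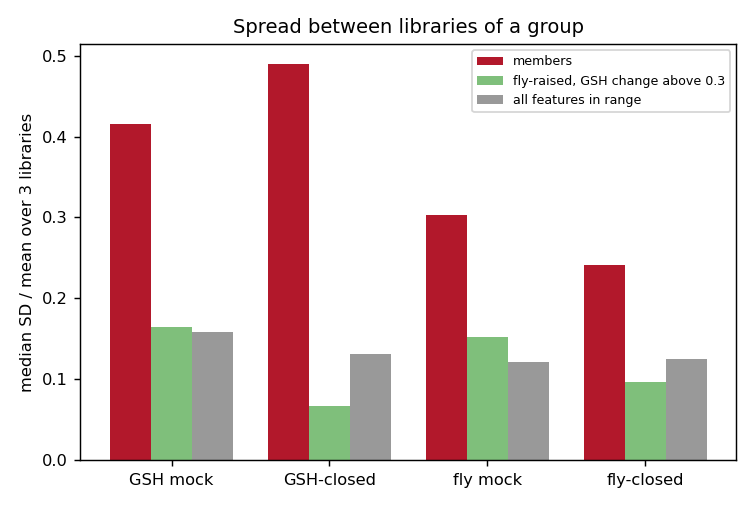
Median over features of the ratio of SD to mean across the 3 libraries of a group, for members, for the other fly-raised features and for all features in range. Members are highest in every group, at 0.49 in GSH-closed and 0.24 in fly-closed traps.

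Libraries that the choice did not use gave a different picture from the set as a whole. The rule was applied to 2 replicates of each group, and the change after flies was then read in the left-out pair of 1 fly-closed and 1 fly mock library, with no test. Without replicate 1, 2 or 3, the rule kept 323, 272 and 279 features. Their median change in the left-out pair was 0.078, 0.17 and 0.030 on the log2 scale, and 53.3%, 56.6% and 50.9% of them were above 0. Before centring the medians were -0.032, 0.18 and 0.071, so the first changes sign with the scaling. Over all features in range the shares above 0 were 46.6%, 49.3% and 50.8%. A change of at least 0.7 was reached in 20.7%, 21.0% and 20.4%, against 8.36%, 8.21% and 8.62% of all features in range. That background was not matched for level or spread, and the share that fell by 0.7 or more was not counted. These shares therefore do not show that the rise came back more often than spread alone would give. Features chosen in the same way but with a GSH change above 0.3 had medians of at least 1.08 in each left-out pair, and 70.0%, 73.2% and 76.3% reached 0.7. The GSH change of the chosen features was read in the same way. It reached 0.7 in 16.7%, 21.3% and 17.6% of them in the left-out libraries, against 16.2%, 17.8% and 16.7% of all features in range. The gap between the unstimulated groups behaved alike: in the left-out libraries the chosen features had a median difference of GSH mock over fly mock of 0.054, 0.026 and 0.058, near the 0.069, 0.024 and 0.051 of all features in range. Only 63 to 69 of the features chosen on 2 replicates were among the 94 members, so these shares describe the rule and not each member.

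**Figure D5:**
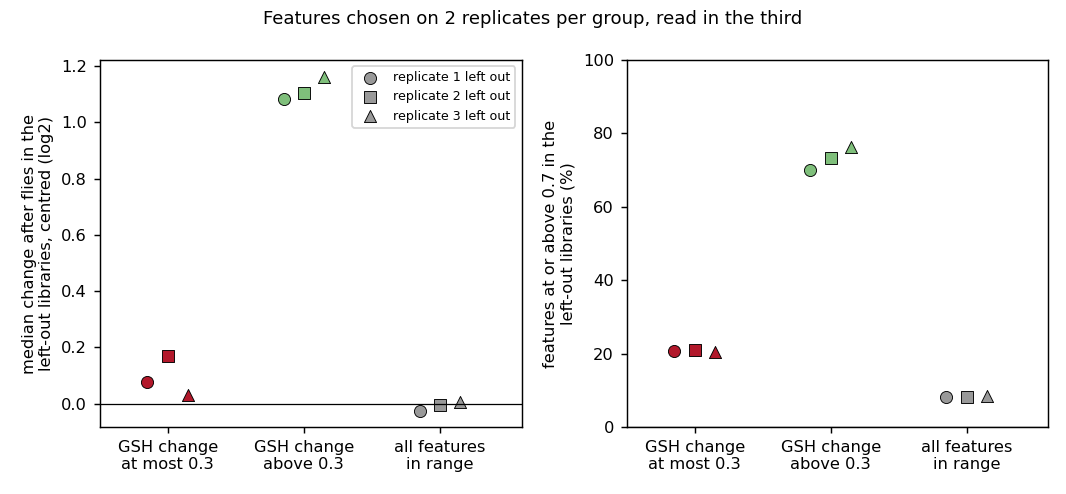
Features chosen by the rule on 2 replicates of each group and read in the left-out fly-closed and fly mock libraries: median change after flies (left, log2) and share at or above 0.7 (right, percent), for features with a GSH change of at most 0.3, for fly-raised features above that limit and for all features in range. Each marker is 1 left-out replicate; the first set stays at 20.4% to 21.0%, the second at 70.0% to 76.3%.

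The rule was also applied with 1 library left out at a time. These runs reuse the libraries that chose the members, and leaving 1 out can only loosen the limits on detection and on the gap. They therefore do not show which members were steady. With any single library left out, 33 of the 94 still met the rule, and 12 of the 15 members called after flies were among these 33. Another 21 failed in 1 of the 12 runs, and 5 failed in at least 4.

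Members came from separate parts of the assembly. They lay in 94 different components, and only 1 read cluster held 2 of them. The 24794 features in range lay in 22044 components and 18823 read clusters, so separate components are common among these as well. Of the members, 17.0% had a sister feature in the same component, against 32.4% of features in range and 36.2% of the other fly-raised features. The 5 sisters in range that were no members had a median change after flies of 0.093 on the log2 scale, and 3 of the 5 were above 0. The 32 non-member features in range of the same read clusters had a median of 0.025. Reads shared between sisters may be divided between them, and this was not tested. The read cluster with 2 members held a low and a higher one. In the first, fly mock libraries held 3.21, 2.41 and 4.94 TPM and fly-closed libraries 12.4, 10.7 and 11.7 TPM. In the second, fly mock libraries held 27.6, 17.9 and 31.5 TPM and fly-closed libraries 38.4, 49.4 and 46.1 TPM. Both were also high in the GSH mock, with means of 10.2 and 49.1 TPM, and only the first was called after flies (limma adjusted p = 0.0432 and 0.0646).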

How the data were processed

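The deposited table holds, per the file headers, 1 column of signal values per library and Trinity-style feature IDs. The submitters' processing notes list RSEM, DESeq2 (version 1.16.1), Trimmomatic and cutadapt without their order or role, and the sources used here do not give how the assembly was made. The deposited signal values are no raw counts: 100% of those under 60 fell, within 0.0051, on a grid whose step is the column sum over 1e+08. They were divided by the library sum to give what is called TPM here; whether they were corrected for feature length is unknown.

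Members, named features and comparisons were chosen with earlier results of these data known. Features of at least 0.526 TPM in 3 libraries (45503) entered the fit after TMM scaling without weights, which trimmed 30% of log ratios and 5% of abundances, and log2(TPM + 1) was fitted across all features with limma (version 3.58.1, under R 4.3.3), in 1 model of 4 groups with trend and robust options. P-values were adjusted by Benjamini-Hochberg over all features. Adding 1 understates changes of low features. The comparison of fly-closed with GSH mock traps was added after seeing the data, and crosses the experiments.

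Named features were, among members of at least 10 mean mock TPM, the 2 with the highest ratio of lowest fly-closed to highest fly mock value and the 2 with the lowest GSH change whose GSH groups did not overlap. Others are described by rank without an ID.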

Additional observations from a re-analysis of the deposited data

Results flagged for a closer look

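The fly and GSH effects differed by limma's test of the difference in 28 members; the rule used both effects, so this only describes the set. Among the features described singly, the fly effect exceeded the GSH effect on the log2 scale by 1.53 in TRINITY_DN9993_c0_g1. It did so by 1.40 in TRINITY_DN40905_c0_g1 (lost under 8 of 18 alternatives), 2.99 in TRINITY_DN2378_c3_g1 (lost under 11 of 18) and 2.06 in TRINITY_DN2805_c2_g1 (lost under 3 of 18). It exceeded it by 1.94 in the member with the highest gap between fly-closed and fly mock libraries and by 2.56 in the next. With 3 libraries in each group, single libraries were not screened as outliers.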

How the results depend on the processing

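The size of the set depends on the rule: 148 features met it with a pseudocount of 0.1, 143 with detection in at least 9 libraries, 39 with a fly change of at least 1 and 41 with a mean mock level of at least 5 TPM. Leaving out 1 library gave 85 to 218, with 166 or more only when a library of the fly experiment was left out. Such a run loosens the limit on the gap, but which limit let the added features in was not counted.

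Members called after GSH were 25 with no scaling, all lower, where 11790 of 45503 tested features were called lower. Called members were 2 with no filter on low values and 4 with only the groups compared in the fit, all lower. Over all features 2792 of 227782 and 3350 of 45503 were called lower there. With 1 library left out, 5 to 11 members were called. The 5, without GSH mock replicate 3, were lower, beside 4431 of 44157 features. The 11, without GSH mock replicate 2, are 10 lower and 1 higher, beside 4755 and 6311 of 44630 features. Members called for the difference were 45 with no scaling, beside 7906 of 45503 features with the fly effect called higher. With no filter they were 12, beside 917 of 227782 features. Members called between the mock groups, all with the GSH mock higher, were 18 with no scaling, beside 4106 of 45503 features. They were 18 among features above 0 in all libraries, beside 2905 of 30755, and 5 with no filter, beside 1511 of 227782. With 1 library left out they were 6 to 13, the 6 without fly mock replicate 1, beside 1869 of 43986 features. Members called between fly-closed and GSH mock traps were 6 with no filter, 5 above and 1 below, beside 1998 and 1627 of 227782 features. With only those groups they were 7, 6 above and 1 below, beside 2615 and 2001 of 45503. With 1 library left out they were 7 to 14. The 7 without fly-closed replicate 1 were 6 above and 1 below, beside 2168 and 2106 of 43582. Without GSH mock replicate 2 there were 6 above and 3 below, beside 3476 and 2976 of 44630. Calls after flies stayed from 10 to 18 under the alternatives run. The 10 with no filter stood beside 1284 of 227782 features called higher, and the 18 without GSH-closed replicate 1 beside 2123 of 44269. The median change of features chosen on 2 replicates ranged from 0.030 to 0.17 in left-out libraries. The log2 ratio of summed member levels, GSH-closed over GSH mock, was -0.17 after TMM scaling. Without that scaling it was -0.68 to -0.53 with 1 library left out, so most of the fall in the unscaled sums depends on the scaling.

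Same-numbered libraries did not deviate together (r from -0.00633 to 0.00948), and not every library correlated best with its own number. With a replicate block, 10 members were called higher after flies, 5 lower after GSH and 19 for the difference. The counts over all 45503 features in the same directions were 1748, 3966 and 1702. The block could not be applied between experiments.

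Among single features, sign changed only for values that did not pass the test. With no scaling the GSH change was -0.087 in the member with the highest gap and -0.12 in the member with the highest mock level, and the difference of fly-closed from GSH mock traps in TRINITY_DN2805_c2_g1 was -0.074. With 1 library left out that difference ran from -0.18 to 0.38, and the GSH change of TRINITY_DN40905_c0_g1 from -0.34 to 0.084. The cause was not tested.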
